A study of Rattus norvegicus with 4 samples.

Results

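This report describes 42 genes of the contractile apparatus of striated muscle, the sarcomere, and of its calcium and energy supply, as measured in fat. The genes were listed by name with earlier results of these arrays known, and 1 array was already known to carry skeletal muscle transcripts, so the values below are a description and no test of them is used as support. A gene counted where an array row was annotated with its symbol alone, and for several rows the row with the highest mean over the 4 arrays was kept. By this rule 38 of the 42 genes had a row, out of 14506 genes measured. Casq1, Mylpf, Myh8 and Neb had no such row and are not analysed here under those symbols.

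The tissue was fat from behind the abdominal lining (retroperitoneal), a visceral depot, of male 4-month-old rats of the WNIN/Ob strain on stock diet, none of them treated. There were 2 rats of the obese phenotype and 2 of the lean phenotype, each giving 1 sample on 1 Affymetrix Rat Gene ST array. The study asked which transcripts differ between the phenotypes at baseline. Levels are log2 of the deposited intensity. A level was called above background where it passed the 95th percentile of 188 olfactory and vomeronasal receptor genes on the same array, which was 4.48 and 4.55 in obese rats 1 and 2, against 4.68 and 5.24 in lean rats 1 and 2. The median of those receptor genes was 3.44 in lean rat 2, against 2.77 to 2.88 on the other 3 arrays, so low values sat higher on that array.

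Fat genes were present on every array. Of 12 adipocyte genes, 11 had a row and all 11 were above background on each array, with a median level of 10.2 and 10.5 in the obese rats and 9.99 and 10.2 in the lean rats. Adipoq, the adiponectin gene, was at 12.0 and 12.3 in the obese rats and at 12.1 and 11.9 in the lean rats.

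In striated muscle, force comes from myosin heads on thick filaments pulling along actin thin filaments. Calcium released from the sarcoplasmic reticulum binds troponin C, and troponin and tropomyosin then uncover the actin sites. Many of these proteins are made from separate genes in fast fibres, slow fibres, the heart and the embryo, so a set of isoforms tells which muscle a transcript pool resembles. Adipocytes do not build sarcomeres, although desmin, some tropomyosins and the calcium pump Atp2a2 occur in other cells of a tissue.

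Lean rat 1 stood apart from the other rats, its own group mate included, for most of these genes. For 30 of the 38 genes its level was at least 2 above the highest of the other 3 arrays, which is at least 4-fold in intensity, where 0.703% of all genes (102 of 14506) did so. The median level of the 38 genes was 5.01 and 4.87 in the obese rats, and 9.44 in lean rat 1 and 5.27 in lean rat 2. The summed intensity of the 38 genes was 2768 and 2331 in the obese rats, against 60228 in lean rat 1 and 2328 in lean rat 2. Of the 38 genes, 32 and 26 were above background in the obese rats, 37 in lean rat 1 and 20 in lean rat 2, where the shares of all genes were 76.0%, 74.9%, 72.6% and 64.1%. In a tissue extract, a change in the number of muscle cells and a change in RNA per cell cannot be told apart.

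**Figure D1:**
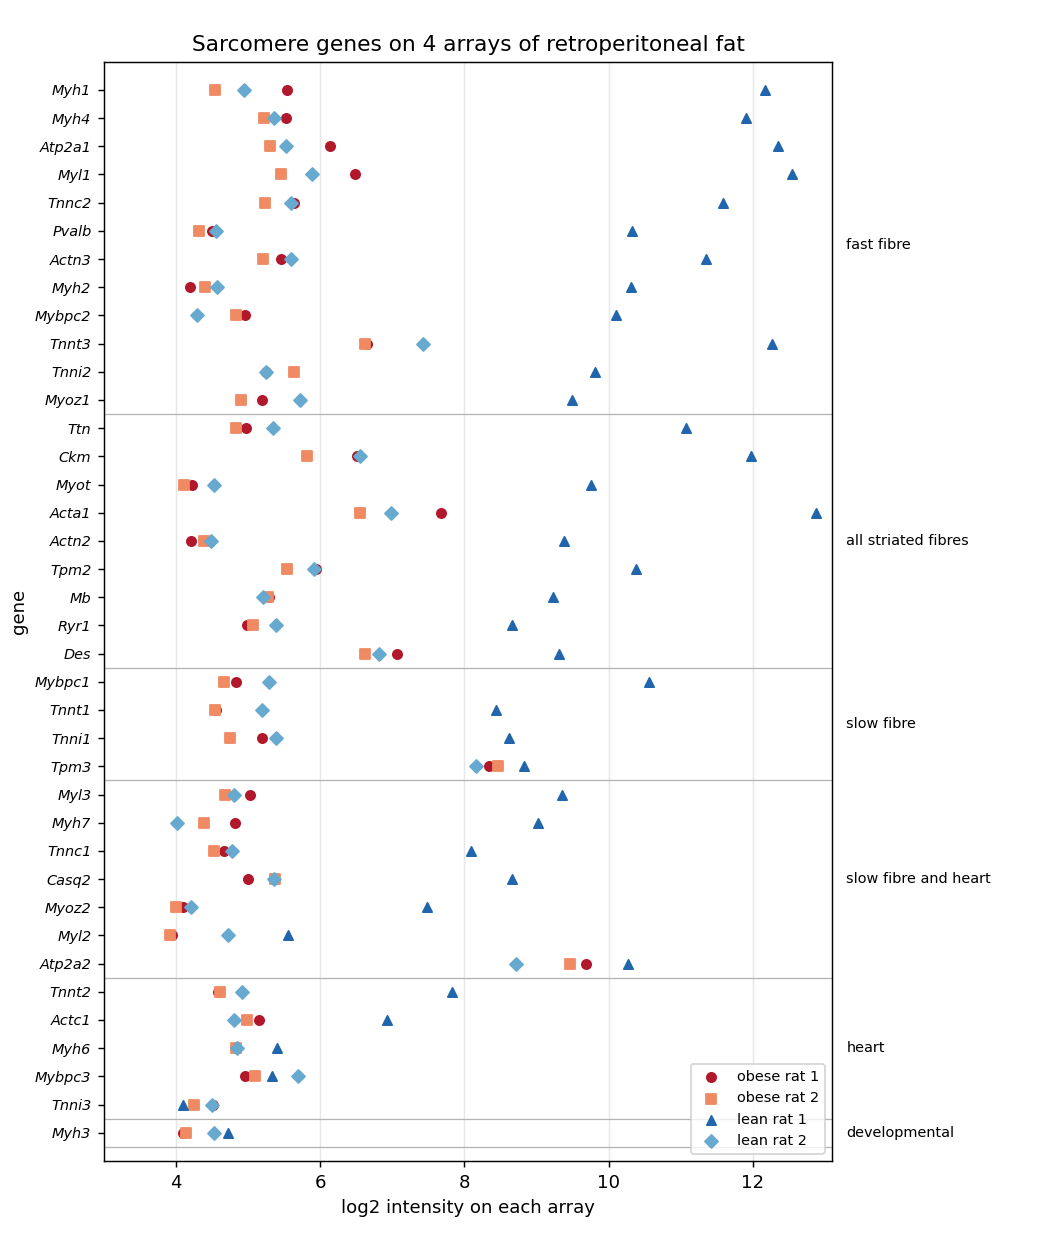
Level (log2 intensity, x axis) of each of 38 genes (y axis) on the arrays of obese rats 1 and 2 and lean rats 1 and 2, 1 point per array, with genes grouped by the muscle that uses them. The lean rat 1 points lie far to the right for fast-fibre genes and close to the others for Myh6, Tnni3, Mybpc3 and Myh3.

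The fast-fibre genes showed the widest gaps. All 12 with a row were at least 2 above the other arrays in lean rat 1, with gaps to the highest other array of 3.76 to 6.62 and a median of 5.77. Among the fast myosin heavy chains, Myh1, the motor of type IIx fibres, was at 5.55 and 4.54 in the obese rats and at 12.2 in lean rat 1 and 4.94 in lean rat 2. This is 98.3-fold higher in intensity in lean rat 1 than on the next array, the widest gap of all 14506 genes. Myh4, the heavy chain of type IIb fibres, was at 5.53 and 5.22 in the obese rats and at 11.9 and 5.35 in lean rats 1 and 2. Myh2, the heavy chain of type IIa fibres, was at 4.19 and 4.39 in the obese rats, below background in both, and at 10.3 and 4.57 in lean rats 1 and 2. For each of the 3 heavy chains lean rat 1 was far above the rest, and lean rat 2 was at most 0.40 above obese rat 2.

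Light-chain and thin-filament genes of fast fibres also had lean rat 1 far above the rest. Myl1, an essential light chain, was at 6.48 and 5.46 in the obese rats and at 12.5 and 5.88 in lean rats 1 and 2. Tnnc2, the fast calcium-binding troponin, was at 5.64 and 5.23 in the obese rats and at 11.6 and 5.60 in the lean rats. Tnnt3, the tropomyosin-binding troponin, was at 6.65 and 6.62 in the obese rats and at 12.3 and 7.43 in the lean rats. Tnni2, the fast inhibitory troponin, was at 5.24 and 5.64 in the obese rats and at 9.82 and 5.24 in the lean rats. Only Tnnt3 and Myoz1 of these 12 genes had a lean rat 2 level more than 0.5 above both obese rats. Myoz1, a Z-disc protein that binds calcineurin, was at 5.20 and 4.91 in the obese rats and at 9.49 and 5.72 in lean rats 1 and 2.

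Genes of calcium handling and structure in fast fibres were likewise highest in lean rat 1. Atp2a1, the pump that returns calcium to the reticulum of fast fibres, was at 6.13 and 5.31 in the obese rats and at 12.3 and 5.53 in lean rats 1 and 2. Pvalb, the calcium buffer parvalbumin, was at 4.50 and 4.32 in the obese rats and at 10.3 and 4.56 in the lean rats. Actn3, the fast-fibre Z-disc actinin, was at 5.46 and 5.21 in the obese rats and at 11.4 and 5.59 in the lean rats, and Mybpc2, the fast myosin-binding protein, had a gap of 5.14. The row for Myl11, which RefSeq gives as the current symbol of Mylpf, the fast regulatory light chain, was not counted. It was at 5.50 and 5.10 in the obese rats and at 11.8 and 5.33 in the lean rats, a gap of 6.32.

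Genes used by all striated fibres gave similar gaps. All 9 with a row were at least 2 above the other arrays in lean rat 1, with gaps of 2.24 to 5.73 and a median of 4.90. Acta1, skeletal muscle actin, was at 7.67 and 6.56 in the obese rats and at 12.9 and 6.98 in lean rats 1 and 2. Ttn, the giant spring protein titin, was at 4.97 and 4.84 in the obese rats and at 11.1 and 5.35 in the lean rats. Ckm, the creatine kinase of muscle, was at 6.50 and 5.82 in the obese rats and at 12.0 and 6.55 in the lean rats. The gap was 5.23 for Myot, a Z-disc protein, 4.90 for Actn2, the actinin of all sarcomeres, and 4.43 for Tpm2, a tropomyosin. It was 3.94 for Mb, the oxygen store myoglobin, and 3.28 for Ryr1, the calcium release channel of skeletal muscle. Des, the intermediate filament desmin, lay just above the limit of 2 and is also made by smooth muscle. It was at 7.07 and 6.62 in the obese rats and at 9.31 and 6.81 in lean rats 1 and 2.

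Slow-fibre genes were also higher in lean rat 1, with smaller gaps. The 4 genes of slow skeletal fibres had gaps of 0.36 to 5.27, with a median of 3.23. Tnni1, the slow inhibitory troponin, was at 5.19 and 4.74 in the obese rats and at 8.61 and 5.38 in lean rats 1 and 2. Tnnt1, its tropomyosin-binding partner, was at 4.55 and 4.54 in the obese rats and at 8.43 and 5.20 in the lean rats. Mybpc1, named for slow fibres but also found in fast fibres, had the widest gap of the 4, with 4.84 and 4.67 in the obese rats and 10.6 and 5.29 in the lean rats. Tpm3, a tropomyosin with forms outside muscle, was at 8.34 and 8.46 in the obese rats and at 8.83 and 8.17 in the lean rats, so its lean rats lay on either side of the obese rats.

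Of the 7 genes that slow fibres share with the heart, 5 passed the limit of 2 in lean rat 1, and the median gap was 3.29. Myh7, the slow myosin heavy chain, was at 4.82 and 4.39 in the obese rats and at 9.02 and 4.02 in lean rats 1 and 2. Myl3, an essential light chain, was at 5.03 and 4.67 in the obese rats and at 9.35 and 4.81 in the lean rats. Tnnc1, the slow troponin C, had a gap of 3.32, Casq2, a calcium store protein, one of 3.29, and Myoz2, a Z-disc protein, one of 3.27. Myl2, the slow regulatory light chain, differed from its partners, with 3.95 and 3.92 in the obese rats and 5.55 and 4.72 in lean rats 1 and 2. Myl2 passed background in lean rat 1 only. Atp2a2, a pump made in most cell types, was at 9.68 and 9.46 in the obese rats and at 10.3 and 8.72 in the lean rats, again on either side of the obese rats.

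Genes of the heart and of developing muscle mostly did not stand out in lean rat 1. Myh6, the alpha myosin heavy chain of the heart, was at 4.83 and 4.83 in the obese rats and at 5.40 and 4.84 in lean rats 1 and 2. Tnni3, the cardiac inhibitory troponin, was at 4.51 and 4.25 in the obese rats and at 4.09 and 4.50 in the lean rats, below background in both lean rats. Mybpc3, the cardiac myosin-binding protein, was at 4.96 and 5.09 in the obese rats and at 5.32 and 5.69 in the lean rats. Tnnt2, cardiac troponin T, and Actc1, cardiac actin, are also made by immature skeletal muscle and were the heart genes with wider gaps. Tnnt2 was at 4.59 and 4.61 in the obese rats and at 7.82 and 4.91 in the lean rats, and Actc1 at 5.16 and 4.98 in the obese rats and at 6.92 and 4.80 in the lean rats. Actc1, with a gap of 1.76, lay just under the limit of 2. Myh3, the embryonic heavy chain and the developmental gene with a row, was at 4.09 and 4.13 in the obese rats and at 4.73 and 4.53 in the lean rats.

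The median gap was thus 5.77 for fast genes, 4.90 for genes of all striated fibres, 3.23 for slow genes, 3.29 for genes of slow fibres and heart and 0.56 for heart genes, where it was -0.35 over all genes. These are differences between arrays for each gene, and levels of different genes were not compared, since array rows differ in brightness. Where the other arrays are near background, the gap understates the difference in transcript, so the order of the groups is no measure of how many fibres of each type were present.

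**Figure D2:**
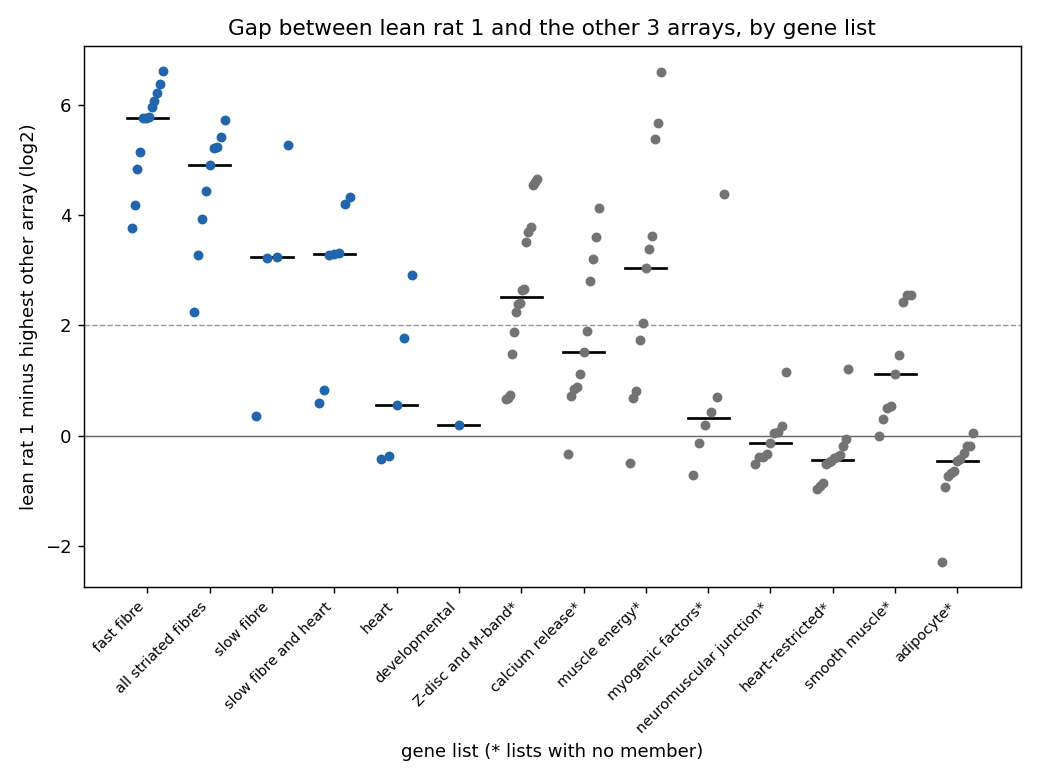
Gap between lean rat 1 and the highest of the other 3 arrays (log2, y axis), 1 point per gene, by gene list (x axis), with the median as a bar and the limit of 2 dashed. Fast-fibre genes lie between 3.76 and 6.62, while the heart-restricted and adipocyte lists have medians below 0.

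Muscle genes outside the sarcomere list were high on the same array. Of 51 listed genes of the Z-disc and M-band, of calcium release and of muscle energy supply, 38 had a row. The limit of 2 was passed in lean rat 1 by 22 of them, where 0.703% of all genes passed it. By list, 11 of 16 Z-disc and M-band genes passed, 4 of 11 calcium release genes and 7 of 11 energy supply genes. Lean rat 1 was highest for 36 of the 38 genes, where it was for 2481 of all 14506 genes. Their median level was 4.93 and 4.86 in the obese rats and 7.97 and 5.22 in lean rats 1 and 2. Pygm, the glycogen phosphorylase of muscle, was at 5.34 and 5.00 in the obese rats and at 12.1 and 5.56 in the lean rats. The other 9 genes with the widest gaps that are not among the 42 by symbol were Myl11, Ampd1, Ppp1r3a, Eno3, Klhl41, Tmod4, Xirp2, Myf6 and Mylk2, with gaps of 4.38 to 6.32. Myf6, the myogenic factor kept on in adult fibres, was at 3.87 and 3.61 in the obese rats and at 8.65 and 4.26 in the lean rats. Myod1 and Myog, the factors of muscle precursors and early differentiation, had gaps of 0.70 and 0.20.

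Lists of other muscle cells and of the nerve contact were set beside these. Of 14 heart-restricted genes, 12 had a row and none passed the limit of 2. The widest gap among them was 1.21, and their median was 4.73 and 4.54 in the obese rats and 4.40 and 5.12 in lean rats 1 and 2. None of the 9 neuromuscular junction genes passed it either, with a widest gap of 1.16. Their median was 4.71 and 4.74 in the obese rats and 5.08 and 5.01 in lean rats 1 and 2, near background. As 0.703% of all genes passed the limit, a short list with none passing is not set apart from other genes. Smooth muscle genes were also higher in lean rat 1, and 3 of 9 with a row passed. The summed intensity of the 9 was 1490 and 1348 in the obese rats and 5760 and 2004 in the lean rats. Lean rat 2 was higher too: both obese rats lay below both lean rats for all 9, where 21.3% of all genes did so. Without lean rat 1 the median difference of the 9, obese minus lean, was -0.67. Myh11, the smooth muscle myosin, was at 7.01 and 6.98 in the obese rats and at 10.2 and 7.80 in the lean rats. The part of smooth muscle in the values of Des was not tested.

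The start regions of 3 of the genes with wide gaps and of a heart gene without one are shown so that the elements known from muscle promoters can be seen. Each is the RefSeq window of 300 bases, 250 before to 50 after the annotated start, in build GRCr8 and 5′ to 3′ on the gene's strand. Acta1 lies on the minus strand at chr19:68784145-68784444 and Ckm on the plus strand at chr1:88189211-88189510. Myh4 lies on the plus strand at chr10:52421898-52422197 and Tnni3 on the plus strand at chr1:78342321-78342620. Capitals mark the E-box CAGCTG, to which myogenic factors can bind, the M-CAT element CATTCC, the CArG box of serum response factor, the MEF2 element and TATAAA, on either strand.
Acta1: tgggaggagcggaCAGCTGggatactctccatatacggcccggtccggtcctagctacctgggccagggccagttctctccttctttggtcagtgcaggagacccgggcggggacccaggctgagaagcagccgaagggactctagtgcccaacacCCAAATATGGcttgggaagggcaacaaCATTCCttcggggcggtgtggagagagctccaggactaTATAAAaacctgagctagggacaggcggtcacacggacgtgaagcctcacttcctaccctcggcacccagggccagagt
Ckm: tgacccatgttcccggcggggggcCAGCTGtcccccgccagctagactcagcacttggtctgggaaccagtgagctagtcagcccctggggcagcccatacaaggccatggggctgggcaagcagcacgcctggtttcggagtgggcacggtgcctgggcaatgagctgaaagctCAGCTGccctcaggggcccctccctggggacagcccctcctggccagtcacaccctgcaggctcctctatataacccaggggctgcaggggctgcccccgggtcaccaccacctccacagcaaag
Myh4: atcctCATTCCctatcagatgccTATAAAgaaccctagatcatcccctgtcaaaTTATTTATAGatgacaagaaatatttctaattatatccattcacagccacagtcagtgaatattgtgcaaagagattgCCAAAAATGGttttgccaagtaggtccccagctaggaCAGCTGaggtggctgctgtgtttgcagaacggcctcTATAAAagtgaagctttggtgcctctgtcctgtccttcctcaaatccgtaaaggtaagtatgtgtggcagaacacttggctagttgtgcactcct
Tnni3: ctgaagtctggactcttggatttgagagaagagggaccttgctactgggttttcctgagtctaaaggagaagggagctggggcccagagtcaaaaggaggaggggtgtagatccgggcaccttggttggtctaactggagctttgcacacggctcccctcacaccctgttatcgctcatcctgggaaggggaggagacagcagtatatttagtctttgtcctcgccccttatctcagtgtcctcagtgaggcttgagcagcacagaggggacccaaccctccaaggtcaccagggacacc

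In the Acta1 window the CArG box began at -94, the M-CAT element at -67 and TATAAA at -29 from the start. The Ckm window held the E-box at -226 and at -75, and the Myh4 window held it at -81 and a CArG box at -118. The MEF2 match of Myh4 at -196 overlapped a TATAAA match on the other strand. The Tnni3 window held none of the 5 motifs as searched. Of the 38 genes, 34 had a RefSeq window, 38 windows in all because some genes have several starts. The E-box was in 14 of 38 windows (36.8%), against 15.1% of all 33469 windows. The MEF2 element was in 8 (21.1%) against 1.87%, the CArG box in 4 (10.5%) against 1.64%, CATTCC in 8 (21.1%) against 14.2%, and TATAAA in 10 (26.3%) against 14.2%. In the 29 windows of genes with a gap of at least 2, the E-box was in 9 (31.0%) and the MEF2 element in 7 (24.1%). The CArG box was in 3 (10.3%), CATTCC in 7 (24.1%) and TATAAA in 9 (31.0%). The 4 windows shown were picked as examples, and whether motifs go with the gap was not tested. A match is a description of letters and was not tested for binding.

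The comparison of obese with lean rats gave no call for any of the 38 genes. Limma's moderated test over all 14506 genes called none of them at an adjusted p under 0.05, where it called 0.841% of all genes, and 9 of the 38 had an unadjusted p under 0.05 against 15.3% of all genes. The median difference, obese minus lean, was -2.25 for the 38 genes, against 0.00 over all genes. It was -3.15 for fast genes, -2.64 for genes of all striated fibres, -2.15 for slow genes, -1.83 for slow and heart genes and -0.49 for heart genes. Myh1 averaged 5.04 ± 0.71 in the obese rats and 8.55 ± 5.11 in the lean rats (SD, n = 2 each), a difference of -3.51 ± 1.85 (SE). The median SD within the group was 0.14 among the obese rats and 3.18 among the lean rats for the 38 genes, against 0.15 and 0.26 over all genes. Both obese rats lay below both lean rats for 20 of the 38 genes, where 21.3% of all genes did so, and above both for none, where 26.4% of all genes did so. Low values sat higher in lean rat 2, where 20 of the 38 genes were above background, against 64.1% of all genes. How far this raised the count of genes with both obese rats lower was not tested.

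Which rats entered the fit decided whether these genes were called. Without lean rat 1, none of the 38 was called, where 7.45% of all genes were, and the median difference was -0.17. The differences then ran from -0.79 to 0.86, with 24 of 38 below 0. The most positive was Atp2a2 at 0.86 (limma adjusted p = 0.119) and the most negative were Tnnt3 at -0.79 (limma adjusted p = 0.089) and Myl2 at -0.79 (limma adjusted p = 0.056). Without lean rat 2, 32 of the 38 were called lower in the obese rats, where 1.94% of all genes were, and the median was -4.42. In each of the fits without a lean rat, the other lean rat was alone in its group and the spread came from the 2 obese rats, with 1 residual degree of freedom, so these 32 calls describe lean rat 1 against the obese rats. Without obese rat 1, 29 were called lower (0.827% of all genes), with a median of -2.32, and without obese rat 2 also 29 (0.834% of all genes), with a median of -2.22. In the last pair of fits limma's prior degrees of freedom were infinite, so each gene's own spread was replaced by the trend shared among genes, and the distance between the lean rats no longer counted.

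**Figure D3:**
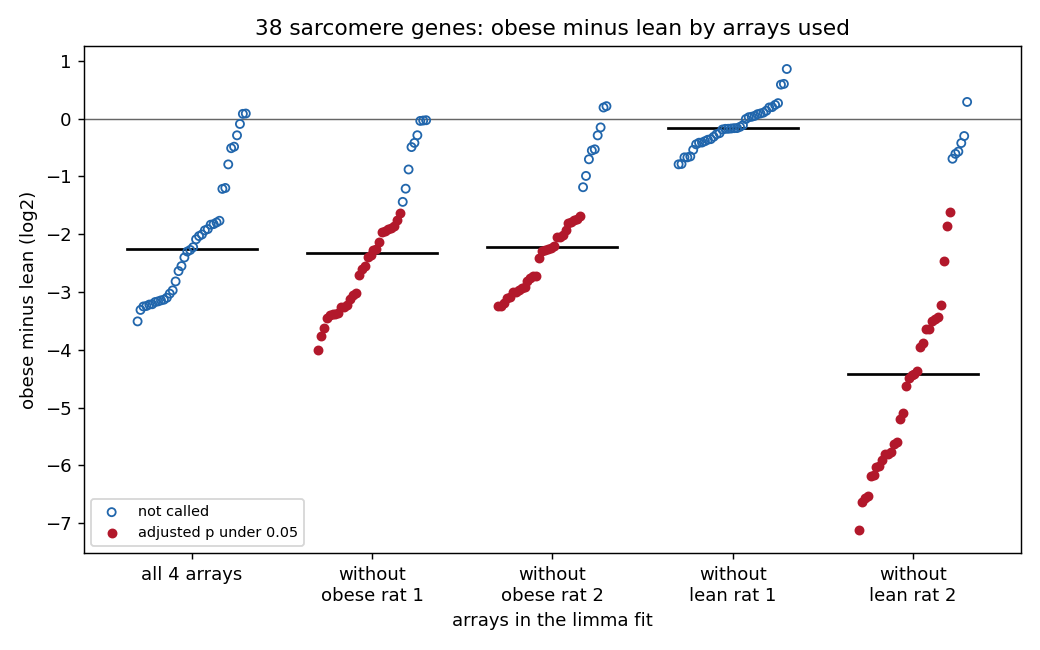
Difference obese minus lean (log2, y axis) of the 38 genes, 1 point per gene and the median as a bar, in limma fits with all 4 arrays or with 1 array left out (x axis), filled where the adjusted p is under 0.05. No point is filled with all 4 arrays or without lean rat 1, and 32 are filled without lean rat 2.

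The number of genes called lower in obese fat, over all genes, changed with each array left out. With all 4 arrays 10 of 14506 genes were called lower, none of them a sarcomere gene. Only a small share of all genes was called lower in this fit or in the fit without lean rat 1. A short list with none called lower in either fit is therefore not set apart from other genes. Without lean rat 1, 417 genes were called lower, and neither a sarcomere gene nor another striated muscle or myogenic gene of the lists above was among them. Without lean rat 2, 282 genes were called lower, of which 32 were sarcomere genes and 34 were other genes of those lists. Without obese rat 1, 120 were called lower, with 29 sarcomere genes and 19 others of those lists, and without obese rat 2, 121 were, with 29 and 20. Of the 122 genes called in either direction with all 4 arrays, 121 and 115 were also called when lean rat 1 or 2 was left out, and 108 and 112 when obese rat 1 or 2 was.

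Small differences of the same genes were present between the obese rats. Obese rat 1 was above obese rat 2 for 28 of the 38 genes, where it was for 45.5% of all genes, and for 24 of the 30 genes with a gap of at least 2. The same was so for 41 of the 72 other genes with such a gap and for 22 of the 38 other striated muscle genes, among them 7 of the 16 Z-disc and M-band genes. It was higher by at least 0.5 for 5 genes, Acta1, Myl1, Myh1, Atp2a1 and Ckm, where 4.98% of all genes were, and these 5 differences ran from 0.69 to 1.11. In linear intensity the excess of obese rat 1 over obese rat 2 was 1.47% of the excess of lean rat 1 over obese rat 2 for Acta1, 0.870% for Ckm, 0.770% for Myl1, 0.590% for Atp2a1 and 0.512% for Myh1. These were the 5 genes with the largest log2 difference between the obese rats. Over the 30 genes with a gap of at least 2 the median was 0.262%, with a range of -2.63% to 6.70%. Across the 38 genes, the difference between the obese rats and the difference between the lean rats had a Pearson correlation of 0.47 and a Spearman correlation of 0.46, against a Pearson correlation of 0.02 across all genes. The genes share the same 4 arrays and are not independent, so these correlations are descriptions. Tnni2 and Casq2 went the other way, at -0.39 and -0.38 between obese rats 1 and 2. What the obese rat 1 values come from was not tested.

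**Figure D4:**
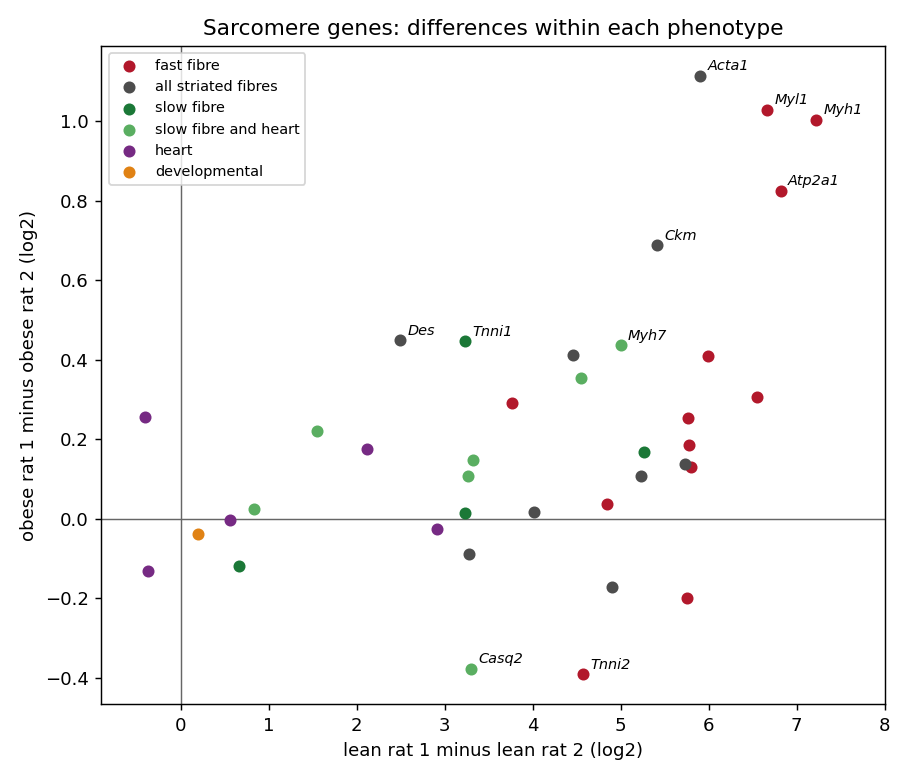
Difference between obese rats 1 and 2 (log2, y axis) against the difference between lean rats 1 and 2 (log2, x axis), 1 point per gene, coloured by the muscle that uses it. Acta1, Myl1, Myh1, Atp2a1 and Ckm lie highest, between 0.69 and 1.11, and the lean difference exceeds 5 for each of them. It also exceeds 5 for genes that lie lower, for example Myh2 at -0.20 and Ttn at 0.14.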

How the data were processed

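The deposited values are linear intensity values made by the authors with RMA, per the submitters' processing notes, whose software and version are not given in the sources used. RMA subtracts background and equalises the probe distributions of arrays. The distributions of the deposited values over genes still differed. Their interquartile range in log2 was 2.05 in lean rat 2, against 2.54 in lean rat 1 and 2.65 and 2.73 in the obese rats. Of 29214 rows, 15310 had exactly 1 symbol in the platform annotation, which gave 14506 genes, and 323 had several. Values were taken to log2 without a pseudocount.

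Obese and lean rats were grouped by the titles and compared with limma 3.58.1 in R 4.3.3 (lmFit, then eBayes with trend) on the 4 arrays, without covariates and with Benjamini-Hochberg adjustment over all genes. With 2 rats against 2, an exact permutation test cannot go below a p of 0.333, and the small number of arrays limits precision. The procedure was tested on simulated data, in 10 runs with a log2 change of 3 added to 200 of 14506 genes on the obese arrays. On average 100% of the changed genes were called, and 4.24% of the calls were false. Each simulated gene had the same spread on all arrays and none stood apart, so the case of lean rat 1 was not covered. All member genes could be named. Others were the 10 with the widest gap between lean rat 1 and the next array and up to 3 of each list by mean level. Myod1, Myog, Actg2, Cnn1 and the uroplakin and epithelial genes were chosen after their values were seen. The alternatives were a replicate block, other normalizations and variance models, a pseudocount, averaging the rows of a gene, leaving out dim genes, another threshold and each rat left out. Members and lists were chosen with earlier results of these data known. RefSeq windows were searched with Python 3.11.15, and figures drawn with matplotlib 3.10.9.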

Additional observations from a re-analysis of the deposited data

How the results depend on the processing

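The number of genes called, 122 with all 4 arrays, was 75 with quantile normalization, 327 with the rat number as a replicate block, 262 with a robust variance model, and 301 at an adjusted p under 0.1. Leaving out 1 rat gave 268 to 1081. Of the 38 sarcomere genes 0 were called, and 2 with the rat number as a replicate block, Myoz1 (-2.55, limma adjusted p = 0.047) and Myl2 (-1.20, limma adjusted p = 0.049). The labels do not say that rats of the same number belong together. The Pearson correlation of the differences between rats 1 and 2 was 0.02 across all genes and 0.47 across the 38 genes. With a rat left out, 0 to 32 of them were called and their median difference ran from -4.42 to -0.17. That median was -2.25 with all 4 arrays, -1.92 with a pseudocount of 16, -2.09 with quantile normalization and -2.15 with arrays centred on their medians. The count of 30 genes with lean rat 1 at least 2 above every other array was also 30 under both normalizations, with the mean of a gene's rows and with the pseudocount, 31 for a gap of 1 and 28 for a gap of 3. Counting Myl11 as Mylpf, an alternative chosen after seeing the data, gave 31, and keeping to the 37 genes above background in lean rat 1, also chosen afterwards, gave a median difference of -2.27. Signal over background limits the sizes for genes near background on the other 3 arrays.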

Other observations

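Several transcripts of the urinary tract lining and of other epithelia were also highest in lean rat 1. These genes were chosen after their values were seen, and their values are descriptions. Of 6 uroplakin genes, membrane proteins of the urothelium, 5 had a row. Upk1a was at 5.17 and 4.83 in the obese rats and at 8.19 and 5.21 in lean rats 1 and 2, and Upk1b at 5.17 and 4.80 in the obese rats and at 7.81 and 5.54 in the lean rats. Upk3a was at 5.52 and 5.33 in the obese rats and at 7.45 and 6.03 in the lean rats. Upk2 and Upk3bl1 did not stand apart in lean rat 1, with gaps of -0.35 and -0.41 to the highest other array. Of the 8 epithelial genes with a row, lean rat 1 was highest for all 8, where it was for 2481 of all 14506 genes. It passed a gap of 2 for 2 of them, Krt19 and Epcam, where 0.703% of all genes did so. Krt7 and Tp63 had gaps of 0.31 and 0.94. Krt19, a keratin of simple epithelia, was at 4.22 and 4.32 in the obese rats and at 8.53 and 4.62 in the lean rats, and Epcam, an epithelial adhesion protein, at 2.85 and 2.99 in the obese rats and at 5.99 and 2.85 in the lean rats. Grhl3, an epithelial transcription factor, was at 4.35 and 4.57 in the obese rats and at 6.45 and 4.84 in the lean rats. Among 9 smooth muscle genes, Actg2, an actin of visceral smooth muscle, was at 5.91 and 5.44 in the obese rats and at 9.01 and 6.46 in lean rats 1 and 2, and Cnn1 at 5.25 and 4.97 in the obese rats and at 7.92 and 5.38 in the lean rats. Over all genes of a list with a row, the gap of lean rat 1 ran from -0.41 to 2.98 for the 5 uroplakin genes. It ran from 0.31 to 3.91 for the 8 epithelial genes and from -0.0023 to 2.56 for the 9 smooth muscle genes. For the 7 kidney genes with a row it ran from -0.92 to 0.054. The source of these transcripts was not tested.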
